A study of Mus musculus with 12 samples.

Results

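Interferon-gamma (IFN-γ) raises many genes that belong to large, well-known families, and the genes described here are those past the same thresholds whose symbols do not carry the names of those families. The names were dropped by symbol alone, and 3 of the members, among them the 1 with the largest ratios, carry such a name as a synonym, as given below. They were chosen by 4 means of FPKM (mapped fragments scaled by transcript length and by the library's total) in IEC4.1, a mouse intestinal epithelial cell line. A gene was a member when its mean FPKM with IFN-γ was at least 1 with both siRNAs, and when the ratio (mean with IFN-γ + 0.1) / (mean without IFN-γ + 0.1) was at least 3 with both siRNAs. Of 15002 genes listed, 121 passed these thresholds, 66 were set aside because their symbols began with 1 of 27 set names (among them Gbp, Irg, H2-, Cxcl, Oas, Ifi, Parp, Stat, Irf and Socs), and 55 remained. The IFN-γ comparisons therefore chose the members, and every IFN-γ ratio given for a member is a description with no test.

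The study asked how Nostrill, a long noncoding RNA, bears on the response of these cells to IFN-γ. All cells were IEC4.1, labelled wild type, and were transfected for 24 h either with a scrambled control siRNA (siR_Ctrl) or with a pool of 3 siRNAs against Nostrill (siR_Nostrill) at 120 nM in total. Each siRNA was used without and with IFN-γ at 1 ng/ml, which gave 4 groups of 3 libraries, named here by their siRNA and by the words + IFN-γ where it was added. This dose and 4 h of IFN-γ come from a figure legend, while the sample labels give 24 h for all 12 samples. One cell line and 1 siRNA pool were used, so that the pool's effect on Nostrill and any other effect of the pool cannot be told apart. The level of Nostrill was not analysed here, since all 15002 genes are listed as mRNA, and the knockdown was therefore not checked.

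IFN-γ binds a receptor of paired chains, which activates the kinases Jak1 and Jak2 and then transcription factors that bind short promoter elements called GAS. One of the genes turned on in this way, Irf1, is itself a transcription factor that binds interferon-response elements in a later wave of genes. Beside the guanylate-binding proteins, MHC genes and chemokines, the response is known to include checkpoint ligands, death receptors, nucleic acid sensors, enzymes that attach ubiquitin or ISG15, and complement proteases, and these are the roles that many of the 55 members hold.

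The libraries held between 17824306 and 19093204 reads on genes. All 55 members passed the filter on low counts and were tested with 11900 genes in all. The filter used the libraries of all 4 groups, and 46 of the 55 passed it on the 2 groups without IFN-γ alone. Of 9 epithelial markers, 4 were analysed and Krt19 and Tjp1 exceeded a mean of 1 FPKM, whereas Epcam and Cdh1 were not analysed here. The 4 summed to between 7.38 and 17.8 FPKM per library. Of 7 fibroblast markers, 6 exceeded 1 FPKM, among them Col1a1, Col1a2, Pdgfra and Pdgfrb, and they summed to between 379.9 and 673.5 FPKM, so these markers went against a purely epithelial label. FPKM totals differed between libraries such that 1 FPKM corresponded to between 1.26 and 1.75 TPM (the same values scaled to a fixed total per library), and transcript length moved with this difference, as described for the members below.

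The promoters of the members were searched for the letters of the 2 elements, as a description with no test of the shares. RefSeq promoter sequence (GRCm38.p6, 250 bases before to 50 bases after each start) was found for 38 of the 55 members. The GAS letters TTCNNNGAA, a palindrome, stood in the promoters of 6 of 38 members (15.8%), 15 of 48 set-aside genes (31.3%), 768 of 9435 other genes tested (8.14%) and 2582 of all 27025 genes with a promoter (9.55%). The interferon-response letters, GAAA followed by any 2 bases and GAAA, were searched on both strands and stood in those of 9 of 38 members (23.7%), 29 of 48 set-aside genes (60.4%), 328 of 9435 other genes tested (3.48%) and 1079 of all 27025 genes (3.99%). The motifs can share the letters GAA, and Gm12250 was the 1 member with both, at places that did not overlap. Of the 9 members with the interferon-response letters, 3 (Gm12250, Mndal and 9930111J21Rik1) carry a set-aside family name as a synonym, so the 2 groups are not fully separate. A match is a description of the letters and not a site of binding, and absence from this window says only that these letters are not in it. Tubb3 and Cd274, which had large ratios, had neither.

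**Figure D1:**
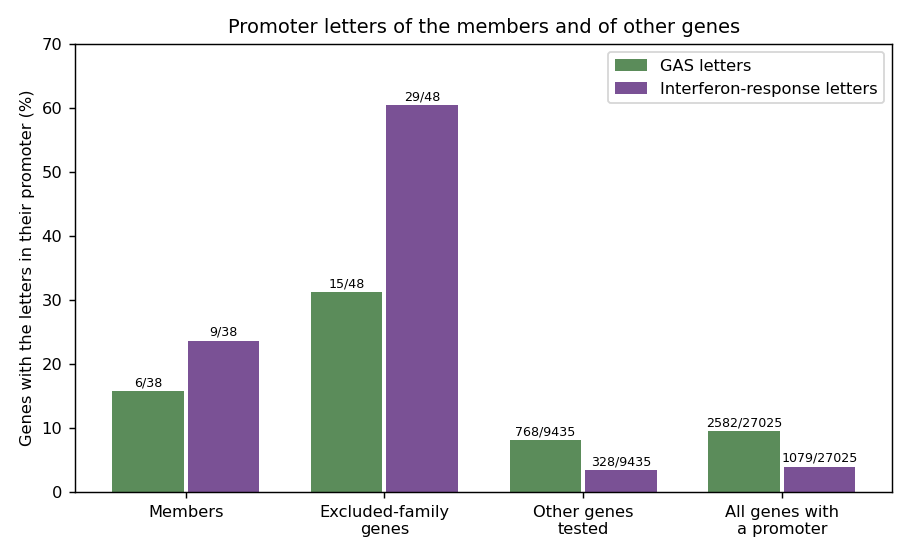
Bars give the percentage of genes whose promoter window holds the GAS letters (green) or the interferon-response letters on either strand (purple), with the number of genes over the number with a promoter above each bar. The members, at 6 and 9 of 38, lie between the set-aside family genes, at 15 and 29 of 48, and the other genes tested.

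Cish, an inhibitor of cytokine receptor signalling, held 2 GAS matches, at positions 0 and 11, and Gm12250, the member with the largest ratios, held 1 GAS match and 2 interferon-response matches, at positions -91 and -46, both as the reverse complement. One window of each is shown with those of 5 other members described below, as 30 bases read 5′ to 3′ on the strand of the gene, with the motif in capitals. Slamf8 shows the interferon-response letters as their reverse complement.
Cish GAS at position 0, chr9:107296649-107296678 (+): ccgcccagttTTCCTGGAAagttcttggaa
Gm12250 GAS at position -61, chr11:58183772-58183801 (+): aattactatgTTCTCAGAAatctgctttca
Nod1 GAS at position -193, chr6:54971835-54971864 (-): ggctggctgcTTCCAGGAAcctcctatggt
Fas GAS at position -93, chr19:34290556-34290585 (+): tcaaagcgatTTCTGGGAAgacctgaatag
Zfp36 GAS at position -17, chr7:28379226-28379255 (-): acagcctgacTTCTGCGAAccgacagtcgg
Tmem140 interferon-response at position -63, chr6:34863073-34863102 (+): gttaaaaaacGAAAGTGAAAtcagctgaga
Slamf8 interferon-response at position -15, chr1:172590564-172590593 (-): cccgggatgcTTTCGCTTTCaagacatctt
Positions count from the annotated start of the transcript, whose first base is 0, and negative positions lie upstream. The matches shown run from position -193 of Nod1 to the first bases of Cish. The remaining GAS match was in Samhd1, and the remaining interferon-response matches were in 9930111J21Rik1, Clec2d, Fcgr4, Mndal, Snx10 and Tnfrsf14.

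With IFN-γ, member levels spanned from 1.19 FPKM to 243.8 FPKM as means over the 6 IFN-γ libraries, with a median of 13.1. Without IFN-γ the median was 1.61 FPKM, and 24 members had a mean under 1. The ratios ran from 3.12 to 69.6 in siR_Ctrl cells (median 5.62) and from 3.12 to 71.9 in siR_Nostrill cells (median 6.37). A ratio of at least 10 with both siRNAs was reached by 13 members. In 54 of 55 members every library with IFN-γ lay above every library without it, and the exception was 9930111J21Rik1. In the fit across all genes, 54 members were called in siR_Ctrl cells, all as higher, where 5.45% of all genes tested were called and 4.71% as higher. The 1 not called was 9930111J21Rik1. In siR_Nostrill cells 55 were called, where 6.78% of genes were called and 5.24% as higher, and 55 had a value above 0, as 49.9% of genes did. Since the same contrasts chose the members, nothing is read from these counts. The set-aside family genes had a higher median of the smaller of the 2 ratios (9.49, against 4.79 for members) and a higher median level with IFN-γ (29.1 FPKM).

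**Figure D2:**
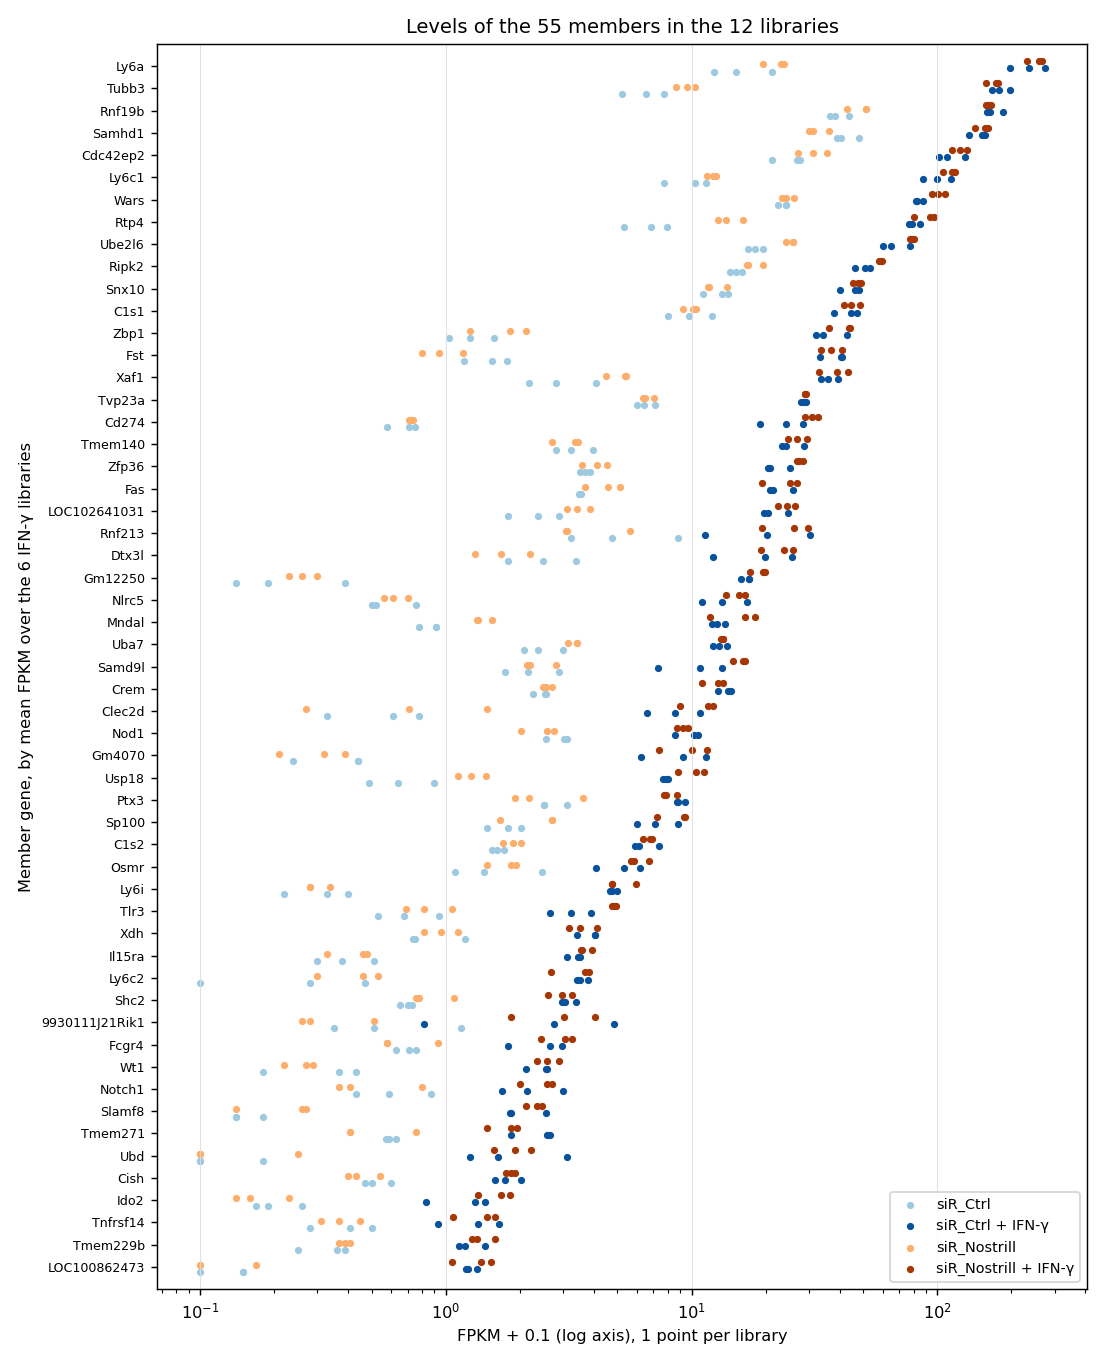
Each point is 1 library and each line 1 member, with FPKM + 0.1 on a log axis and colours for the 4 groups. The dark points (with IFN-γ) lie to the right of the pale points (without) for 54 of 55 members, and 9930111J21Rik1 is the line on which they mix.

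Surface and checkpoint proteins held the highest level among the members. Ly6a encodes Sca-1, a lipid-anchored surface protein. Its FPKM was 12.2, 15.1 and 21.2 in siR_Ctrl cells and 235.7, 274.4 and 198.2 in siR_Ctrl + IFN-γ cells. With siR_Nostrill the values were 23.6, 23.1 and 19.5, and 231.2, 257.9 and 265.6 with IFN-γ. All IFN-γ libraries stood far above the others, and the 2 siRNAs overlapped with IFN-γ. Its relative Ly6c1 reached 100.1 ± 13.0 FPKM (SD, n = 3) in siR_Ctrl + IFN-γ cells and 112.5 ± 6.90 in siR_Nostrill + IFN-γ cells. Ly6i and Ly6c2 were lower, at 4.69 ± 0.155 and 3.47 ± 0.183 FPKM in siR_Ctrl + IFN-γ cells. The 4 Ly6 members lie within chr15:74979534-75112066 (GRCm38.p6), share sequence, and could have shared reads in the counting, so the split among them is uncertain.

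Cd274 encodes PD-L1, the ligand that restrains T cells through PD-1. It is at chr19:29362107-29388095. Its FPKM was 0.65, 0.61 and 0.48 in siR_Ctrl cells and 24.1, 18.9 and 28.2 with IFN-γ. The siR_Nostrill libraries were at 0.64, 0.61 and 0.62, and 32.7, 30.7 and 28.8 with IFN-γ. Its ratios of 35.1 and 42.6 were second among the members with both siRNAs, and with IFN-γ the siR_Nostrill libraries all lay above the siR_Ctrl libraries. Tnfrsf14, a receptor of the tumour necrosis factor family known as HVEM, was near the level threshold, at 1.21 ± 0.362 and 1.28 ± 0.274 FPKM with IFN-γ. Of the 11 other genes tested from a list of checkpoint, adhesion and surface proteins, counted without the members that the rule had chosen as higher, 7 rose with IFN-γ in siR_Ctrl cells and 6 in siR_Nostrill cells (edgeR, quasi-likelihood, Benjamini-Hochberg adjusted), where 4.71% and 5.24% of all genes tested rose. None of the 11 fell. This list and those below were drawn up with earlier results of these data known, so such counts are a description.

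Among genes of cell death, Zbp1, a sensor of Z-form nucleic acid that can start necroptosis, was at 1.48, 0.93 and 1.16 FPKM in siR_Ctrl cells and at 31.9, 42.9 and 34.2 with IFN-γ. With siR_Nostrill it was at 1.16, 2.02 and 1.73, and at 36, 43.9 and 43.6 with IFN-γ. The ratios were 28.2 and 23.8, and the 2 siRNAs overlapped in both states. Fas, a death receptor, was at 22.7 ± 2.78 and 23.6 ± 3.87 FPKM with IFN-γ and at 3.42 ± 0.0200 and 4.36 ± 0.727 without. Xaf1, which encodes a binding partner of the apoptosis inhibitor XIAP, was at 2.09, 2.71 and 3.99 FPKM in siR_Ctrl cells and at 5.34, 5.24 and 4.39 in siR_Nostrill cells, with no overlap. With IFN-γ it reached 36.2 ± 3.03 and 38.5 ± 5.16 FPKM.

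Regulators and sensors followed. Nlrc5, the transactivator of MHC class I genes, was at 0.66, 0.4 and 0.42 FPKM in siR_Ctrl cells and at 13.2, 10.9 and 16.7 with IFN-γ. It was at 0.51, 0.46 and 0.6 FPKM in siR_Nostrill cells and at 15.5, 16.4 and 13.7 with IFN-γ, so its ratios were 23.1 and 24.6 and the siRNAs overlapped in both states. Wars, the cytosolic tryptophanyl-tRNA synthetase, changed less but from a higher level: 24.2, 22.5 and 24.0 FPKM in siR_Ctrl cells and 86.9, 81.5 and 82.4 with IFN-γ. In siR_Nostrill cells it was 23.2, 24.2 and 26.1 FPKM, and 107.2, 100.3 and 95.4 with IFN-γ, above all 3 siR_Ctrl + IFN-γ libraries. Nod1, a sensor of bacterial cell wall fragments, reached 9.72 ± 1.08 and 9.09 ± 0.481 FPKM with IFN-γ, and Ripk2, the kinase that acts below it, 49.95 ± 3.60 and 58.8 ± 0.978. Their ratios lay between 3.30 and 3.74. Tmem140, a membrane protein in the list of transcription and signalling regulators, reached 25.3 ± 2.84 and 26.9 ± 2.45 FPKM, with ratios of 7.62 and 8.49.

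Of the nucleic acid sensors and antiviral restriction factors, 6 are members. Samhd1 encodes an enzyme that depletes the nucleotides retroviruses need. It was at 47.8, 38.9 and 40.5 FPKM in siR_Ctrl cells and at 156.2, 134.5 and 152.0 with IFN-γ. With siR_Nostrill it was at 31.2, 30.1 and 36.2 FPKM, below all 3 siR_Ctrl libraries, and at 160.3, 155.8 and 142.4 with IFN-γ, where the siRNAs overlapped. Rtp4, a receptor transporter protein with antiviral activity, showed the opposite order without IFN-γ. It was at 5.2, 6.75 and 7.87 FPKM in siR_Ctrl cells and at 16.1, 13.7 and 12.7 in siR_Nostrill cells, and with IFN-γ at 80.1 ± 4.56 and 90.1 ± 9.0. Its ratio was therefore 11.96 in siR_Ctrl cells and 6.34 in siR_Nostrill cells. Mndal, of the family of DNA-binding HIN-200 proteins, reached 12.7 ± 0.804 and 15.4 ± 3.22 FPKM, Samd9l 10.4 ± 2.998 and 15.7 ± 0.959, Sp100, a nuclear body protein, 7.21 ± 1.41 and 8.54 ± 1.21, and Tlr3, the endosomal receptor for double-stranded RNA, 3.16 ± 0.615 and 4.75 ± 0.1. From the list of sensors and restriction factors, 27 genes that are not members were tested. With IFN-γ, 20 of them rose in siR_Ctrl cells and 22 in siR_Nostrill cells, and none fell. Of all genes tested, 4.71% and 5.24% rose. The list was drawn up with earlier results known, so these counts are a description.

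The ubiquitin and ISG15 conjugation genes gave 7 members, more than any other list. Ube2l6, Uba7 and Usp18 encode the conjugating enzyme, the activating enzyme and the protease of the ubiquitin-like protein ISG15. Ube2l6 was at 16.9, 17.9 and 19.4 FPKM in siR_Ctrl cells and at 25.7, 25.8 and 24.0 in siR_Nostrill cells, with no overlap. With IFN-γ it was at 64.8, 77.2 and 60.3, and at 77.3, 78.9 and 80.5, again with no overlap, though the nearest libraries, at 77.2 and 77.3, were all but equal. Its smaller ratio, 3.12, was the lowest but one among the members. Uba7 was at 2.27, 1.99 and 2.89 FPKM in siR_Ctrl cells and at 3.05, 3.32 and 3.31 in siR_Nostrill cells, and at 12.9 ± 0.827 and 13.2 ± 0.167 with IFN-γ. Usp18, which also restrains the type I interferon receptor, was at 0.8, 0.39 and 0.54 FPKM in siR_Ctrl cells and at 1.36, 1.02 and 1.17 in siR_Nostrill cells. With IFN-γ it was at 7.56, 7.77 and 7.94, and at 8.72, 11.2 and 10.4. Without IFN-γ the siR_Nostrill libraries of these 3 genes lay above those of siR_Ctrl, as was so for 10.2% of all genes tested. Rnf19b, a RING-type ubiquitin ligase, reached 169.2 ± 13.8 and 160.7 ± 3.75 FPKM, Dtx3l, the ligase partner of Parp9, 19.2 ± 6.79 and 22.8 ± 3.38, and Rnf213, a very large ligase, 20.6 ± 9.53 and 25.0 ± 5.31. Without IFN-γ the siR_Nostrill means of Dtx3l and Rnf213 were the lower ones, at 1.64 against 2.46 FPKM and at 3.84 against 5.48 FPKM. Ubd, which encodes the ubiquitin-like protein FAT10, was at 1.91 ± 0.990 and 1.80 ± 0.330 FPKM with IFN-γ and was at 0 reads in 4 of the 6 libraries without it. Of the 15 genes tested from the list that are not members, 6 rose with IFN-γ with each siRNA. Of all genes tested, 4.71% rose in siR_Ctrl cells and 5.24% in siR_Nostrill cells. These counts too are a description, since earlier results were known when the list was made.

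Complement and acute phase genes gave 3 members. C1s1 and C1s2, which encode the C1s protease of the classical complement pathway, reached 43.0 ± 4.74 and 6.37 ± 0.812 FPKM in siR_Ctrl + IFN-γ cells, and 44.8 ± 3.35 and 6.57 ± 0.312 in siR_Nostrill + IFN-γ cells. They are near copies of each other, so reads could have been split between them. Ptx3, a pentraxin that opsonises microbes, was at 8.61, 8.75 and 9.35 FPKM in siR_Ctrl + IFN-γ cells. In siR_Nostrill + IFN-γ cells it was at 8.59, 7.61 and 7.79. With IFN-γ it was the 1 member whose FPKM lay wholly below, as was so for 8.29% of all genes tested. The nearest libraries, at 8.59 and 8.61, were all but equal. Il15ra, the receptor chain that presents interleukin 15, was at 3.26 ± 0.212 and 3.59 ± 0.208 FPKM with IFN-γ, against 0.297 ± 0.106 and 0.323 ± 0.0815 without. Metabolic members were Wars, Xdh, which encodes xanthine dehydrogenase, at 3.74 ± 0.370 and 3.50 ± 0.472 FPKM, and Ido2, a tryptophan-degrading enzyme, at 1.10 ± 0.327 and 1.52 ± 0.240.

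Some of the highest members hold no role in those lists. Tubb3 encodes a beta-tubulin best known from neurons and lies at chr8:123411553-123422015. It was at 5.11, 6.4 and 7.6 FPKM in siR_Ctrl cells and at 177.4, 197.6 and 166.9 with IFN-γ. With siR_Nostrill it was at 8.53, 10.2 and 9.5, and at 176.4, 157.8 and 173.8 with IFN-γ. It was second in level, its ratios were 27.9 and 17.8, and without IFN-γ the siR_Nostrill libraries all lay above the siR_Ctrl libraries. Fst encodes follistatin, a secreted protein that binds activin, and lies at chr13:114452262-114458989. It was at 1.45, 1.68 and 1.09 FPKM in siR_Ctrl cells and at 41.0, 33.4 and 40.4 with IFN-γ. It was at 0.84, 0.7 and 1.08 FPKM in siR_Nostrill cells and at 40.8, 36.9 and 33.5 with IFN-γ, so that its ratios were 25.5 and 38.2 and the siRNAs differed in order without IFN-γ only.

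Gm12250 had the largest ratios, 69.6 and 71.9. It was at 0.29, 0.04 and 0.09 FPKM in siR_Ctrl cells and at 17.0, 17.0 and 15.8 with IFN-γ. In siR_Nostrill cells it was at 0.16, 0.2 and 0.13, and at 19.5, 19.8 and 17.2 with IFN-γ. RefSeq gives it the synonym Irgb10, and gives Mndal the synonym Ifi212 and 9930111J21Rik1 the synonym Iigp, so 3 of the 55 members carry set-aside family names under another symbol. Cdc42ep2, an effector of the small GTPase Cdc42, reached 113.4 ± 14.3 and 123.6 ± 8.74 FPKM, Snx10, a sorting nexin, 44.7 ± 4.03 and 47.2 ± 1.76, Tvp23a, a Golgi membrane protein, 28.5 ± 0.660 and 28.9 ± 0.187, and Zfp36, which encodes the mRNA decay factor tristetraprolin, 22.1 ± 2.63 and 27.4 ± 0.716. The smaller ratio of these was between 3.49 for Snx10 and 6.03 for Zfp36. LOC102641031 was at 21.5 ± 2.67 and 24.3 ± 1.95 FPKM with IFN-γ. The other members outside the lists were lower. Crem was at 13.7 ± 0.867 and 12.3 ± 1.20 FPKM with IFN-γ, Clec2d, a C-type lectin, at 8.54 ± 2.11 and 10.9 ± 1.72, and Gm4070 at 8.86 ± 2.61 and 9.56 ± 2.13, the last from 0.273 and 0.207 without IFN-γ. Osmr, Ly6i, Ly6c2, Shc2, 9930111J21Rik1, Fcgr4, Wt1, Notch1, Slamf8, Tmem271, Tmem229b and LOC100862473 had means over the 6 IFN-γ libraries between 1.19 and 5.53 FPKM.

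**Figure D3:**
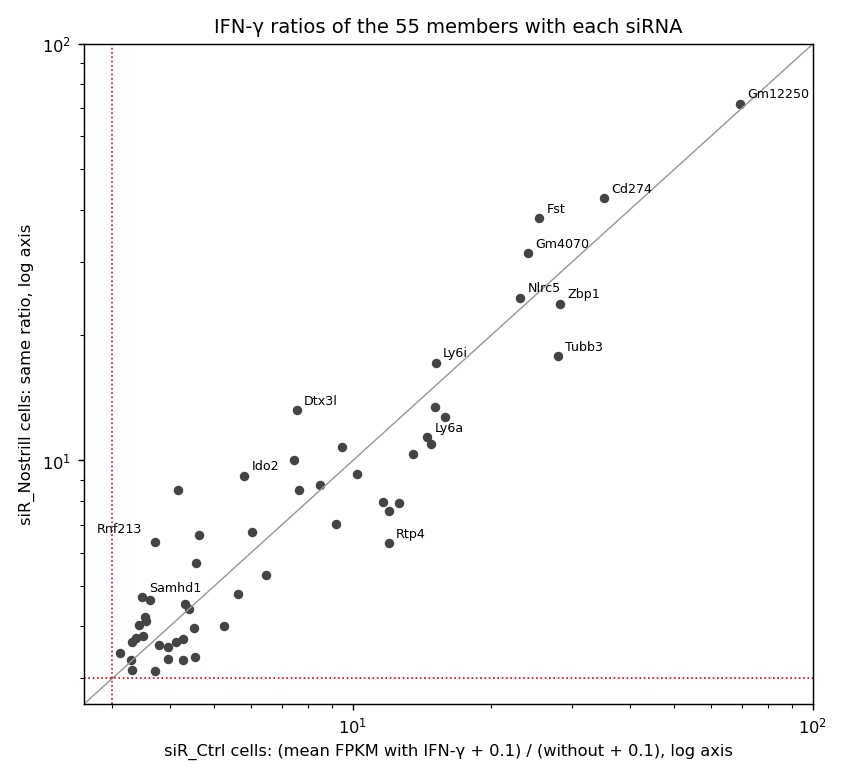
Each point is a member, with its IFN-γ ratio in siR_Ctrl cells on the x axis and in siR_Nostrill cells on the y axis, both log axes, the diagonal in grey and the threshold of 3 dotted. The 2 ratios lay within 1.5 times of each other for 47 of 55 members, with Gm12250 at the top right and Dtx3l above and Rtp4 below the diagonal.

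The 2 ratios of a member were close. Their quotient (siR_Nostrill over siR_Ctrl) had a median of 1.01, and 47 members lay within 1.5 times. The larger ratio was in siR_Ctrl cells for 27 members and in siR_Nostrill cells for 28. The quotient was lowest for Rtp4, at 0.530, and highest for 9930111J21Rik1, at 2.04. Close to the fold threshold, Osmr, the oncostatin M receptor (ratios 3.12 and 3.45), Ube2l6 (3.72 and 3.12) and Ptx3 (3.31 and 3.14) were just inside, and Herc6 (2.95 and 3.60), LOC100044068 (3.15 and 2.87) and Mt2 (3.12 and 2.85) just outside. Close to the level threshold, Ido2, Tmem229b and LOC100862473 were just inside, with smaller means of 1.10, 1.16 and 1.16 FPKM with IFN-γ, and Ptgfr, Ccrl2 and C4b just outside, with 0.990, 0.953 and 0.857. None of these values is a test, and the edge of the group is thus a matter of small differences.

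The differences between the siRNAs did not choose the members and can be tested. Without IFN-γ this holds for 46 of the 55, since the others passed the filter only through their IFN-γ libraries. Without IFN-γ, 0 of 55 members were called by edgeR (quasi-likelihood, Benjamini-Hochberg adjusted over 11900 genes, threshold 0.05), where 0.218% of genes were called and 0.0756% as higher. At an unadjusted p under 0.05 there were 13 members (23.6%), where 13.8% of all genes were, and 11 members were higher in siR_Nostrill cells (20% of the 55), where 6.19% of all genes were. DESeq2 called 7 of 55 members where it called 2.35% of genes, namely Rtp4, Usp18, Tubb3, LOC102641031, Ube2l6 and Uba7 as higher and Samhd1 as lower. The log2 fold change of siR_Nostrill over siR_Ctrl was above 0 for 37 of 55 members, against 50.6% of all genes, with a median of 0.12 against 0.0051. The median was 0.21 without siR_Ctrl replicate 1, and the count was 32 without siR_Ctrl replicate 2. In the edgeR fit of only the 2 groups without IFN-γ, 0 of the 46 members tested were called. Of these, 13 had an unadjusted p under 0.05 and 32 a value above 0, with a median of 0.13. The shares of all genes in this fit are not given here, so nothing is read from these counts. The other members had too few reads there to pass the filter, and nothing is read from their values without IFN-γ.

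The nearest to the threshold was Rtp4, whose log2 fold change without IFN-γ was 1.05 ± 0.19 (SE, n = 3 against 3, adjusted p = 0.0693 in edgeR). It was followed by Usp18 at 1.07 ± 0.24 (adjusted p = 0.132 in edgeR) and Samhd1 at -0.36 ± 0.08 (adjusted p = 0.146 in edgeR). Uba7 was at 0.46 and Ube2l6 at 0.51. Other members of the same ubiquitin and ISG15 list had values below 0, Dtx3l at -0.56 and Rnf213 at -0.48, and over the 22 genes of that list 0 were called and the median was 0.028. The others higher at an unadjusted p under 0.05 were Mndal (0.77), LOC102641031 (0.59), Tubb3 (0.59), Xaf1 (0.67), Rnf19b (0.32), Zbp1 (0.79) and Ripk2 (0.26), and Fst (-0.66) was lower. By size alone the highest value was that of Slamf8, an immune cell surface receptor of low level, at 1.13 ± 0.67. Slamf8 had 2, 1 and 1 reads in siR_Ctrl cells and 4, 4 and 1 in siR_Nostrill cells, so nothing is read from this value. The lowest 3 were those of 9930111J21Rik1, at -1.14 ± 0.79, Fst, and LOC100862473, at -0.62 ± 1.06, and apart from Fst the intervals of these held 0. LOC100862473 had at most 5.02 estimated reads in any library without IFN-γ, so nothing is read from its value either. The 95% interval lay within 1 of 0 on the log2 scale for 35 of 55 members, and reached beyond it for the other 20.

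The same comparison was made on single libraries. Without IFN-γ, all 3 siR_Nostrill libraries exceeded all 3 siR_Ctrl libraries in FPKM for 12 of 55 members (21.8%), against 10.2% of all genes tested, and lay below them for 2 (Fst and Samhd1), against 6.94%. On TMM-scaled CPM (counts scaled to an effective library size), a scaling chosen after the data were seen, 14 members (25.5%) were wholly higher, against 8.70% of genes, and the same 2 wholly lower, against 9.27%. The summed leukocyte markers analysed, chiefly Cd68 and Cd14 among 6, ranged from 16.3 to 18.9 FPKM in siR_Ctrl cells and from 19.2 to 21.8 in siR_Nostrill cells, and their part in these results was not tested.

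With IFN-γ, edgeR again called 0 of 55 members, where it called 0.429% of genes and 0.185% as higher. At an unadjusted p under 0.05 there were 6 members (10.9%), against 14.5% of all genes, and 5 of them were higher (9.09%), against 6.87%. DESeq2 called 1, Wars, where it called 5.65% of genes, and limma on log2(FPKM + 1) called 0, where it called 1.22%. The same limma fit without IFN-γ called 1, Rtp4, where it called 0.18% of genes. Wars had a log2 fold change of 0.23 ± 0.07 (adjusted p = 0.151 in edgeR). Samd9l was at 0.55 ± 0.18, Tlr3 at 0.52 ± 0.18, Cd274 at 0.32 ± 0.11 and Zfp36 at 0.25 ± 0.09, all higher, and Tmem271, a membrane protein, was at -0.52 ± 0.23, with an adjusted p in edgeR of 0.191 or more in each of these 5. The other values at the extremes were those of Ido2, at 0.39 ± 0.27, Ptx3, at -0.22 ± 0.20, and Crem, a cAMP-responsive transcription factor, at -0.19 ± 0.10. Usp18 was at 0.32 ± 0.15 (adjusted p = 0.371 in edgeR).

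In all, 40 of 55 members had a value above 0 with IFN-γ, against 49.4% of genes, with a median of 0.058 against -0.0026. The count was 31 without siR_Ctrl + IFN-γ replicate 2 and between 34 and 37 without any 1 of the other IFN-γ libraries, and the median was 0.10 without siR_Nostrill + IFN-γ replicate 1. Their FPKM did not overlap and was higher in siR_Nostrill cells for 10 members (18.2%), against 14.6% of genes, and lower for 1, Ptx3 (1.82%), against 8.29%. On TMM-scaled CPM these were 6 (10.9%), against 11.1%, and 1, against 10.4%. The 95% interval lay within 1 of 0 on the log2 scale for 50 of 55 members. In both states, 3 members (5.45%) were wholly higher in siR_Nostrill cells in FPKM, Ube2l6, Usp18 and Ripk2, against 3.27% of genes. On TMM-scaled CPM these were 2 (3.64%), Ripk2 and Wars, against 2.23%.

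**Figure D4:**
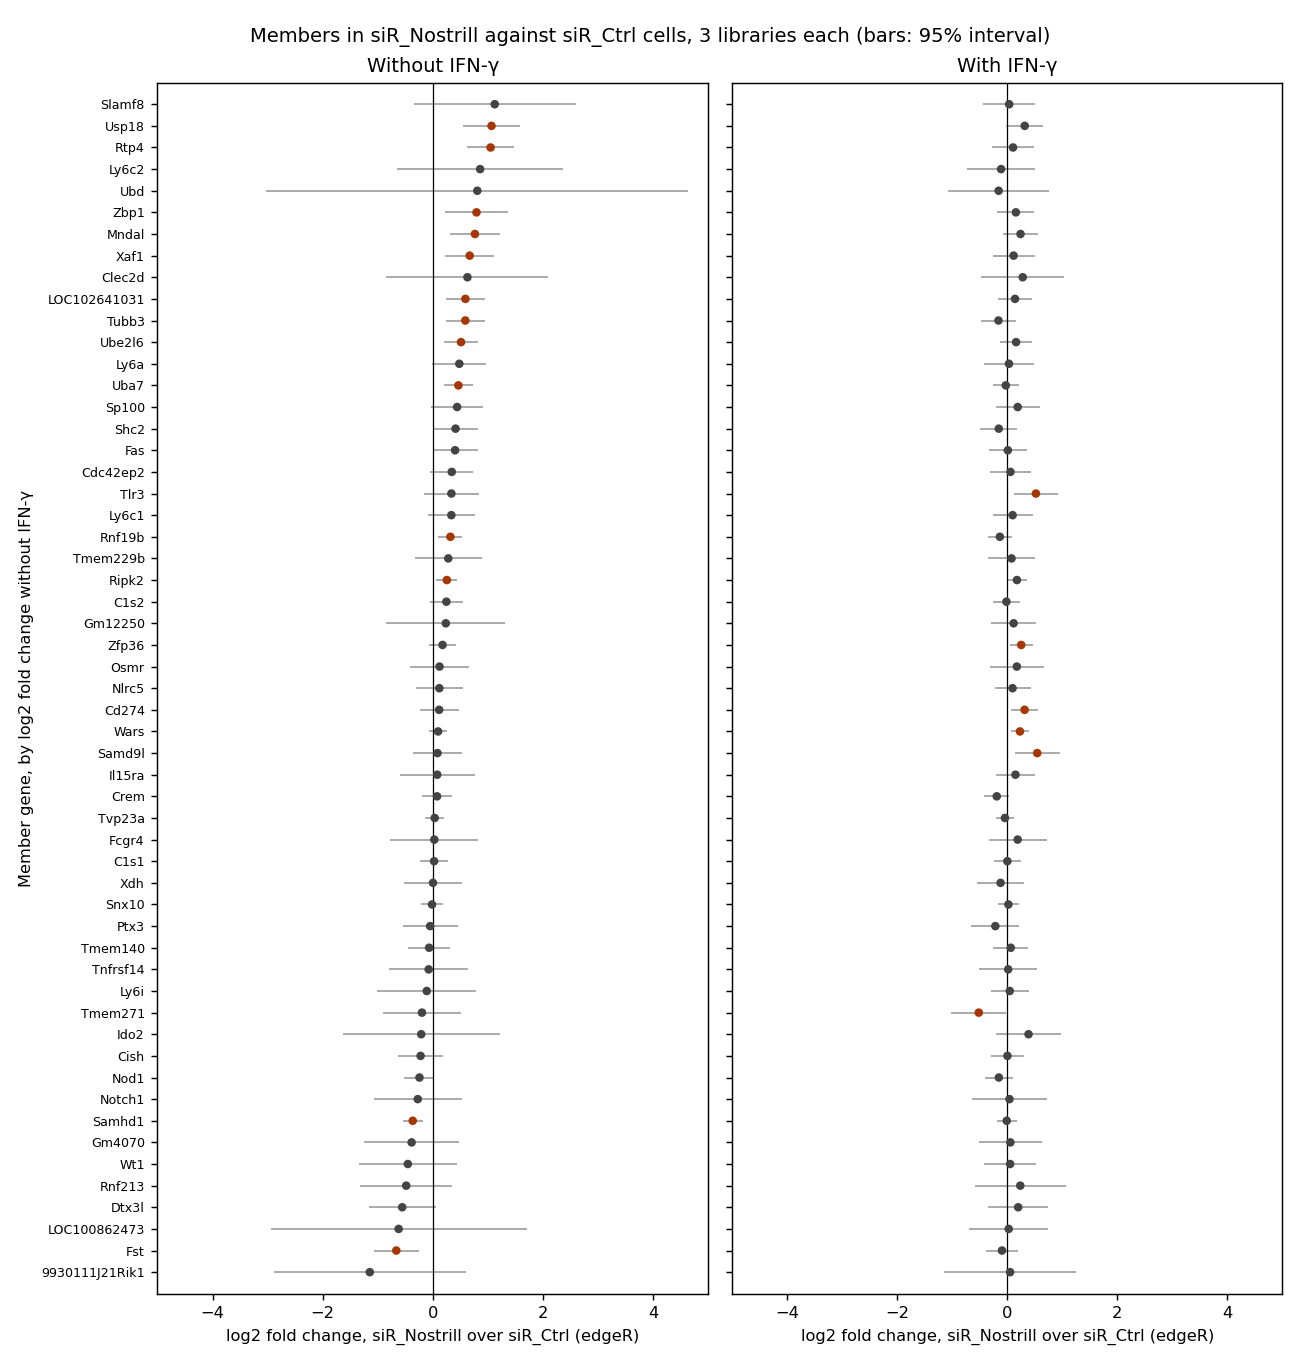
Points are log2 fold changes of siR_Nostrill over siR_Ctrl for each member without IFN-γ (left) and with it (right), from edgeR with 3 libraries a group, and bars are 95% intervals. Orange points have an unadjusted p under 0.05 (13 on the left, 6 on the right), and none passed after adjustment over all genes.

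The interaction, the difference between the 2 IFN-γ responses on the log2 scale, was not called for any member or any other gene by edgeR, nor under any alternative. At an unadjusted p under 0.05 there were 8 members (14.5%), against 10.7% of all genes. The response was smaller in siR_Nostrill cells for 6 of them (10.9% of members, against 6.01% of all genes), namely Rtp4 (-0.94), Tubb3 (-0.75), Usp18 (-0.75), Shc2 (-0.57), Uba7 (-0.49) and Rnf19b (-0.45), and larger for 2 (3.64%, against 4.72% of all genes), Fst (0.57) and Samhd1 (0.36). The lowest adjusted p was 0.430 in edgeR. The rule required a ratio of 3 with both siRNAs, which limits how far the 2 responses of a member can differ, and the interaction uses the same libraries as the comparisons above.

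Among the 3 libraries of siR_Ctrl + IFN-γ cells, the order of a member's values went with its transcript length. The effective length that joins each gene's counts to its FPKM had a median of 2428 bases over the members, against 2678 over all genes tested. Rnf213, the longest at 16553 bases, was at 20.2, 11.2 and 30.3 FPKM in the 3 siR_Ctrl + IFN-γ libraries, Dtx3l at 19.9, 12.1 and 25.6, Notch1 at 2.04, 1.59 and 2.91, and 9930111J21Rik1 at 2.66, 0.72 and 4.73. Replicate 2 was the lowest and replicate 3 the highest of these replicates for 21 of the 27 members longer than the median and for 3 of the 28 others, as it was for 65.5% and 11.9% of all genes tested on either side of that length. On TMM-scaled CPM these counts were 14 and 1, against 54.9% and 6.15% of all genes. In TPM they were 27 and 12, against 85.8% and 37.0%, so the size of the contrast between longer and shorter members differed with the scale.

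**Figure D5:**
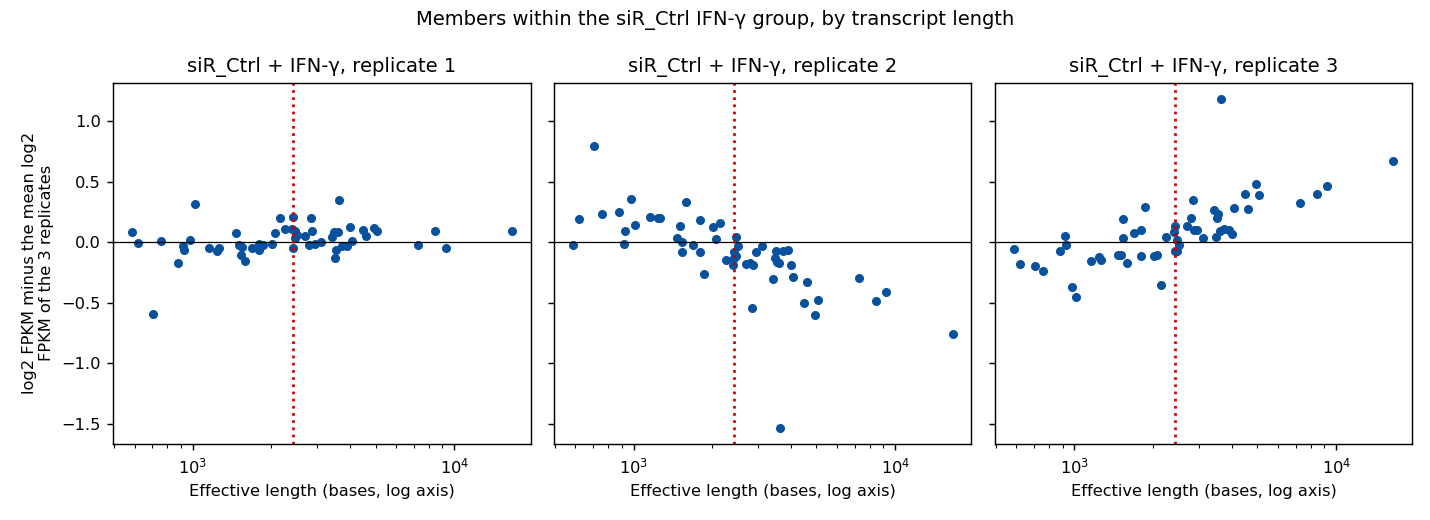
For each member (points), log2 FPKM in a siR_Ctrl + IFN-γ library minus the mean of the 3 replicates is plotted against effective length on a log axis, with the median of 2428 bases dotted. Of the 27 longer members, 21 are lowest in replicate 2, below 0, and highest in replicate 3, above 0.

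The siRNA comparison without IFN-γ moved with length as well. The 28 members at or below the median length had a median log2 fold change of 0.38 and the 27 longer ones 0.024. All genes tested had 0.16 and -0.14 on either side. The member medians without IFN-γ in this paragraph include the members that passed the filter only through their IFN-γ libraries. They were not taken over the other 46 alone and are a description. When a smooth trend with length was removed in each library, the medians of the members became 0.22 and 0.11, those of all genes 0.0036 and 0.0035, and edgeR called 6 members: Rtp4, Tubb3, LOC102641031, Ube2l6 and Uba7 as higher and Samhd1 as lower, where 3.39% of genes were called. With IFN-γ the same removal gave 6 calls, Wars, Samd9l, Tlr3, Cd274, Ly6c1 and Ube2l6, all higher, where 12.9% of genes were called. The direction of each of these named members without IFN-γ was the same with and without the trend. Whether length itself or something that goes with it orders the libraries was not tested.

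The pathway above the members was measured by a list of 24 genes from the receptors and kinases to the transcription factors and inhibitors, of which 23 were tested, Cish and Usp18 being members. By the same edgeR fit, 8 of the 21 that are not members rose with IFN-γ in siR_Ctrl cells and 9 in siR_Nostrill cells. None fell, and 4.71% and 5.24% of all genes tested rose. The list was made with earlier results known, so these counts are a description. The pathway genes that rose included Irf1 (log2 fold change 3.57 and 3.23), Stat2 (3.19 and 2.91), Socs3 (2.47 and 2.2), Irf9 (2.31 and 1.77) and Stat3 (1.90 and 2.01). Ifngr1 and Jak1 did not pass with either siRNA. In siR_Nostrill against siR_Ctrl cells, Ifngr2, a chain of the IFN-γ receptor, was higher with IFN-γ by 0.54 (adjusted p = 0.0375 in edgeR), at 50.9 against 33.5 FPKM, and Irf9, a transcription factor of the type I interferon response, was higher without IFN-γ by 0.58 (adjusted p = 0.0358 in edgeR), at 9.14 against 6.16 FPKM. No other gene of the list passed in either comparison in this fit. With 1 library left out, Ifngr2 passed in 3 of 12 fits (without siR_Ctrl replicate 1, siR_Nostrill replicate 1 or siR_Nostrill replicate 3) and Irf9 in 2 of 12 (without siR_Ctrl + IFN-γ replicate 2 or 3), with adjusted p up to 0.175 in edgeR for each. With only the groups compared, edgeR called neither. With a replicate block it also called neither (adjusted p = 0.0503 for Ifngr2 and 0.0640 for Irf9 in edgeR). The log2 fold changes stayed at 0.54 and 0.58 in both of these fits. DESeq2 called 3 genes of the list in each state, where it called 5.65% of all genes with IFN-γ and 2.35% without. Cish was at 0.423 ± 0.0681 and 0.357 ± 0.0737 FPKM without IFN-γ and at 1.69 ± 0.223 and 1.74 ± 0.0755 with it.

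The other lists were counted without the members, which the rule had already chosen as higher. They too were made with earlier results of these data known, so their IFN-γ counts are a description. With IFN-γ in siR_Ctrl and siR_Nostrill cells, where 4.71% and 5.24% of all genes were called higher, edgeR called as higher 7 and 6 of 12 other genes tested for cell death and inflammasome, 4 and 6 of 13 other regulators of antigen presentation, 7 and 10 of 17 other cytokines and their receptors, 3 and 4 of 12 for complement and acute phase, 12 and 9 of 32 for metabolism, redox and transport, and 15 and 16 of 45 transcription and signalling regulators. Of these lists, Edn1, the endothelin 1 gene, was called lower with IFN-γ in siR_Ctrl cells (-0.85) and Areg, which encodes amphiregulin, in siR_Nostrill cells (-0.80). In siR_Nostrill against siR_Ctrl cells, 0 of their genes were called with IFN-γ, and 1 without it, Edn1, which was lower, at -1.32, and passed in 2 of 12 fits with 1 library left out (without siR_Ctrl + IFN-γ replicate 2 or 3). The call of Edn1 with IFN-γ held in 7 of 12 such fits, and that of Areg in 12 of 12. With only the groups compared in the edgeR fit, Edn1 was not called in either comparison (adjusted p = 0.329 for siR_Nostrill without IFN-γ and 0.0514 for IFN-γ in siR_Ctrl cells).

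In the annotation of the deposited tables, 32 of 55 members (58.2%) had a biological process term that names interferon, immunity, a virus, defense, an antigen, a cytokine, an interleukin or a bacterium, against 59 of 66 set-aside genes (89.4%) and 11.8% of all genes tested. The term for defense response to virus was given to 6 members (Tlr3, Dtx3l, Nlrc5, Samhd1, Zbp1 and Rtp4), or 10.9%, against 27.3% of set-aside genes and 1.21% of all genes tested. The term for protein ubiquitination was given to 7 members (12.7%), against 10.6% and 4.01%. The term for apoptotic process was given to 6 (Nod1, Fas, Ripk2, Wt1, Xaf1 and Zbp1), or 10.9%, against 4.55% and 4.0%. The 23 without such a term, of which 4 had no term of any kind, included Tubb3, Fst, Crem, Wt1, Xdh, Snx10, Tvp23a and Shc2. The genes near the members were also counted. Another of the 121 genes lay within 20000 bases for 6 of 53 members placed on chromosomes (11.3%), for 31 of 66 set-aside genes (47.0%) and for 0.682% of other genes tested. These neighbours were Ly6a with Ly6i, Mndal with Ifi211, Dtx3l with Parp9, Gm12250 with Igtp, and 9930111J21Rik1 with Gm12185, Psme2b and Tgtp1. Dtx3l overlaps Parp9 and 9930111J21Rik1 overlaps Psme2b, and reads there could have been shared.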

How the data were processed

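RNA was sequenced from 12 libraries, 3 per group. Per the labels and methods, reads were filtered with SOAPnuke 1.5.2, aligned with HISAT2 2.0.4 and Bowtie2 2.2.5 to GRCm38.p6, and quantified per gene by the authors. The deposited tables give estimated counts (between 90.6% and 91.6% of them whole), FPKM and TPM. No source used here gives the strand setting of the counting. Members and lists were chosen with earlier results of these data known.

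Estimated counts were rounded, filtered with filterByExpr, scaled by TMM and fitted over the 4 groups with edgeR 4.0.16 (quasi-likelihood test, Benjamini-Hochberg adjustment over 11900 genes, called at an adjusted p under 0.05), in R 4.3.3. The fit was tested on simulated data. FPKM gave the rule and the levels shown, and TPM an alternative to it. Alternatives were DESeq2 1.42.0, limma 3.58.1 on log2(FPKM + 1) and log2(FPKM + 0.1), DESeq2 size factors, no filter, only the groups compared, a replicate block, removal of a length trend (lowess, span 0.3), and each library left out. The methods call the libraries biological replicates. Each p-value sets a difference between groups against the spread between libraries, which the main fit pooled over the 4 groups. That spread also moved with transcript length. Counts of replicates differed by more than sampling noise in every group (chi-square over its degrees of freedom, 6.72 to 101.3).

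Named were the 4 highest members of each role list, the 8 highest in no list, the 3 largest and smallest ratios, the 3 highest and lowest siR_Nostrill values, members the study names and genes at the thresholds. Others were named after their values were seen. Promoters and positions are from RefSeq (GRCm38.p6). The values of 1 gene of the pathway list are not reported here.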

Additional observations from a re-analysis of the deposited data

How the results depend on the processing

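The number of members was 35 with a pseudocount of 1, 119 with a fold of 2, 27 with a fold of 5, and from 50 to 60 when 1 library was left out. It stayed within 1.5 times with a pseudocount of 0.01 (56), TPM (59, of which 54 shared), a level of 0.5 (62) and a level of 5 (37). Without siR_Ctrl + IFN-γ replicate 3, Osmr, Rnf213, Tnfrsf14, Ido2 and 9930111J21Rik1 were no longer members. The GAS letters fell to 2 of 38 members (5.26%) when TTCCNGGAA was required, against 10.4% of set-aside genes and 1.48% of other genes tested. On the given strand alone the interferon-response letters fell to 5 of 38 members (13.2%), against 29.2% and 1.65%.

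For siR_Nostrill with IFN-γ, the count over all genes (51) was 601 in DESeq2, 1540 with the length trend removed, 135 and 114 in limma with pseudocounts of 1 and 0.1, 30 without the filter and 0 with only the groups compared (1563 at an unadjusted p under 0.05), and from 0 to 72 with 1 library left out, with 0 without siR_Nostrill + IFN-γ replicate 1 or 3. The members called (0) were 1 in DESeq2 and 6 with the trend removed, and 0 with any library left out. Without IFN-γ the count over all genes (26) was 257 in DESeq2, 404 with the trend removed and 0 with only the groups compared (1143 at an unadjusted p under 0.05), and from 0 to 37 with 1 library left out, with 0 without siR_Ctrl replicate 1, any 1 siR_Nostrill library or siR_Nostrill + IFN-γ replicate 2. The members called (0) were 7 in DESeq2, 6 with the trend removed, and 1 (Rtp4) in limma with either pseudocount, and 0 with any library left out. The median of the members ranged from 0.046 to 0.10 with IFN-γ and from 0.105 to 0.21 without as libraries were left out. In limma with pseudocounts of 1 and 0.1 it was 0.10 and 0.13 with IFN-γ, where 44 and 45 members lay above 0. Without IFN-γ it was 0.058 and 0.13 in those fits. With the trend removed it was 0.10 with IFN-γ and 0.16 without. The medians without IFN-γ include the members with too few reads in those libraries to pass the filter. For IFN-γ itself, the count was 649 in siR_Ctrl cells, and 1322 with the trend removed, 341 with only the groups compared and from 489 to 589 with a library left out. It was 807 in siR_Nostrill cells, and 1330 in DESeq2, 2257, 1997 and from 491 (without siR_Nostrill replicate 2) to 1138 in that order. The interaction stayed at 0 under all alternatives. Of 518 alternatives for single named members, 498 kept direction and side of the threshold, 20 passed it (in DESeq2, limma or with the trend removed), and 0 reversed.

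Replicate numbers are shared by the groups, and deviations of same-numbered libraries correlated from -0.495 to 0.725, which shows no pairing by number. The deviations also moved with transcript length (Spearman from -0.75 to 0.782), which could hide a shared culture or batch. Whether the numbers pair the libraries was therefore not settled. With a replicate block the siR_Nostrill counts were 32 with IFN-γ and 18 without, and 0 members were called in either state. The block also took Ifngr2 with IFN-γ to an adjusted p of 0.0503 and Irf9 without it to 0.0640 in edgeR. Their log2 fold changes stayed at 0.54 and 0.58. Irf9 was not called by limma with either pseudocount. The cause of these differences was not tested. With 3 libraries a group the median distance from a member's value to the end of its 95% interval was 0.36 with IFN-γ and 0.45 without on the log2 scale.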

Other observations

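Outside the families, 23 genes with a mean of at least 1 FPKM with IFN-γ reached the ratio of 3 with 1 siRNA only, 13 in siR_Ctrl cells and 10 in siR_Nostrill cells. Bst2, which tethers virus particles to the cell, had ratios of 3.53 and 1.98, at 211.1 and 198.2 FPKM with IFN-γ. Cebpd, a transcription factor of the acute phase, had 3.91 and 2.73, and Nmi, a STAT-binding protein, 3.66 and 2.37. Cyp1b1, a cytochrome P450 enzyme, had 2.15 and 3.59, Has2, a hyaluronan synthase, 1.99 and 3.24, and Il6, a cytokine, 2.64 and 3.36. A ratio past the threshold with 1 siRNA is not a difference between the siRNAs. The test of that difference, the interaction in edgeR, called 0 genes at an adjusted p of 0.05 and 1277 of 11900 at an unadjusted p under 0.05.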
